A study of Danio rerio with 12 samples.

Results

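The experiment asked whether the difference between glucocorticoid receptor (GR) morphants and their controls was the same at 24 and at 36 hours post fertilization (hpf). All 12 of the 12 arrays of the series entered 1 comparison, the change at 36 hpf minus the change at 24 hpf, where a change is the morphant level minus the control level. The 4 groups held 3 arrays each: MO 24 hpf, MP 24 hpf, MO 36 hpf and MP 36 hpf. MO embryos received 4.4 ng of a morpholino against the start of translation of the zebrafish GR messenger, in 1 nL at the single-cell stage, and MP embryos received the same amount of a mispaired control oligonucleotide. Every sample was the RNA of a pool of 25 whole embryos, and the 3 samples of a group came from separate breeding events on separate days. All embryos were injected and no uninjected group was included, so the effect of injection itself is shared by MO and MP. RNA was labelled with Cy3 and read on single-colour Agilent zebrafish arrays, which compare whole embryos: fewer cells of a type and less RNA per cell cannot be told apart in these values.

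GR is a nuclear receptor that binds cortisol and then switches target genes on or off in the nucleus. Zebrafish eggs carry maternal cortisol and maternal GR messenger, so that the receptor can act before the embryo makes its own hormone. At 24 hpf the body segments have formed and the heart has begun to beat. By 36 hpf blood circulates, pigment spreads, lens fibers and photoreceptor precursors mature and muscle fibers contract vigorously. Many genes turn on or off in this window, so a difference seen at 1 of these times need not be seen at the other. A translation-blocking morpholino pairs with the messenger around its start codon. The MO sequence given with the samples is shown because the whole contrast rests on it, with the bases that pair with the start codon in capitals:
GR morpholino: ctccagtcctccttgatcCATtttg
Stretch of the messenger it pairs with, start codon in capitals: caaaATGgatcaaggaggactggag
The labels print this sequence for the control oligonucleotide as well although they describe it as mispaired, so the control sequence is not shown here.

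The 24 hpf arrays resembled each other closely and the 36 hpf arrays less so. Within a group the correlation of 2 arrays was 0.988 to 0.997 at 24 hpf, and it was 0.925 to 0.98 in MO 36 hpf against 0.963 to 0.979 in MP 36 hpf. These correlations were taken over the 19114 bright probes used for scaling, so dim probes do not enter them. Median intensity was 129.9 to 141.8 in MO 24 hpf and 133 to 171.7 in MP 24 hpf, and it was 35.79 to 106 in MO 36 hpf and 84.48 to 172.1 in MP 36 hpf. The MO 36 hpf replicate 2 array stood apart, with the lowest median intensity of the series (35.79), 66% of probes well above background and correlations of 0.925 to 0.942 with its group. Results are therefore given with this array and without it. Each slide held 1 MO and 1 MP array of the same time, and no slide held both times, so that the difference between the times cannot be told apart from slide and scan session, while each change between MO and MP can be taken within a slide. A scan session is here the morning or afternoon of a scan date in the file headers. Session 1 held MO 24 hpf replicates 2 and 3 and MP 24 hpf replicate 1, session 2 the other 24 hpf arrays and session 3 all 36 hpf arrays. Replicate 3 of MO 24 hpf and of MP 24 hpf thus shared a slide but not a session. Values were scaled to the median of bright probes on each array, so a change is relative to the bulk of the RNA. Scaling to the 8 spike-in probes, whose RNA is added in fixed amount, gave a median over all genes of -0.423 for the change at 24 hpf, -1.1 for that at 36 hpf and -0.695 for the interaction (log2), and scaling to all positive control spots gave -0.0811, -1.14 and -1.08. Directions at 36 hpf that turned with this choice are given by class and for some of the genes named. Both of these scalings lower the change at 36 hpf of nearly every gene. A small positive change there may thus turn negative also where this is not said.

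**Figure D1:**
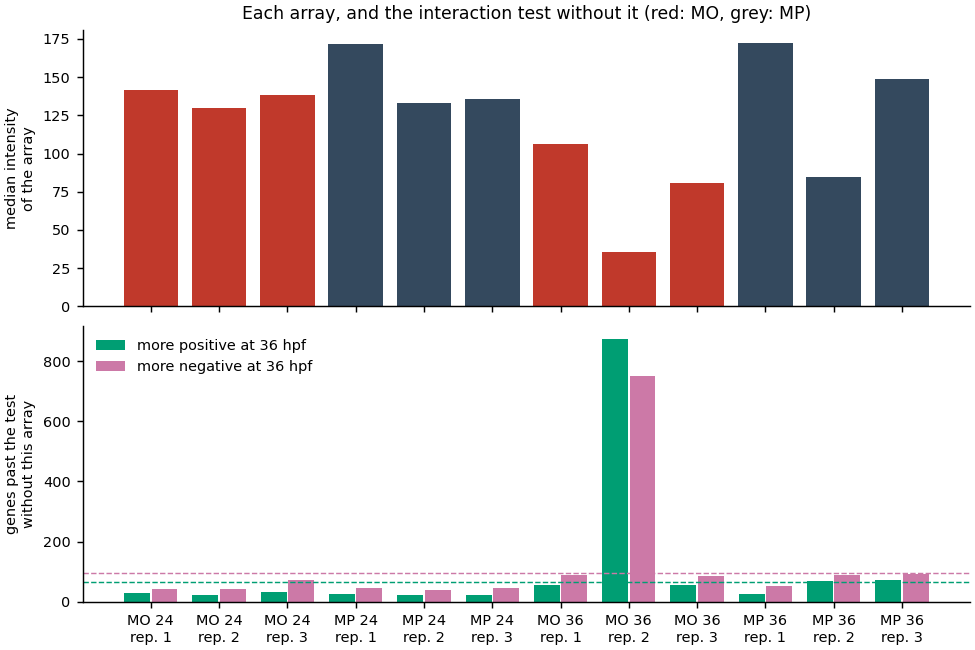
Upper panel: median intensity of each array, with MO (red) left of MP (grey) at 24 and then 36 hpf. Lower panel: number of genes that passed the interaction test when that array was left out, as side-by-side bars. Green bars count genes with a more positive change at 36 hpf and pink bars those with a more negative one, with dashed lines at the 67 and 94 genes of all arrays. Leaving out MO 36 hpf replicate 2 raised the total to 1626.

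The difference between MO and MP depended on time for 161 of 10391 genes tested (limma, Benjamini-Hochberg adjusted p under 0.05), which is 1.55% of them. The change was more positive at 36 hpf than at 24 hpf for 67 genes (0.645%) and more negative for 94 (0.905%), and under spike-in scaling the split was 0 and 99. Scaled to all positive control spots it was 1 and 383. At an unadjusted p under 0.05, 1580 genes passed. Of the 161 genes, 56 were transient (changed at 24 hpf only: 26 higher and 30 lower in MO), 65 were late (changed at 36 hpf only: 25 higher and 40 lower), 23 were reversed (14 higher in MO at 24 hpf and lower at 36 hpf, 9 the other way) and 17 changed in the same direction at both times by different amounts. Here and below, changed means past the threshold. A gene changed at 1 time only is thus not shown to be unchanged at the other. Fits of the arrays of 1 time alone called 5000 of 10351 genes at 24 hpf and 632 of 9886 at 36 hpf. The late and reversed classes rest on 36 hpf calls, of which the fit of all arrays made more. These classes came from the fit of all arrays that gave the interaction. In it 2204 genes changed at 24 hpf (1068 higher in MO, 10.3%, and 1136 lower, 10.9%) and 1874 at 36 hpf (836 higher, 8.05%, and 1038 lower, 9.99%). These splits also depended on the scaling: of 1016 genes changed at 36 hpf under spike-in scaling 15 were higher in MO, and of 6213 under scaling to all positive control spots 52 were. At 24 hpf 150 of 310 and 324 of 620 were higher, and all of the transient genes were (53 and 127). All 23 of the 949 genes that changed at both times in opposite directions passed the interaction test. Opposite changes past the threshold in the same fit nearly fix this outcome, so it is no separate support. Across the 10391 genes the changes at 24 and 36 hpf correlated (r = 0.608), a description over genes that are not independent replicates.

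Without MO 36 hpf replicate 2 the same test called 1626 genes (15.6%), 864 of them transient, 414 late and 149 reversed. The split by direction was then 874 more positive and 752 more negative at 36 hpf. They included all 161 genes, each with the same sign of interaction, and 20 of the 23 reversed genes were again reversed. The fits that left out another 36 hpf array called 138 to 165 genes, except that without MP 36 hpf replicate 1 (78), and leaving out MO 24 hpf replicate 1, 2 or 3 gave 74, 62 and 103 genes, and MP 24 hpf replicate 1, 2 or 3 gave 72, 62 and 69. Of the 161 genes, 52 passed in all 12 of these fits, and all 161 kept the sign of their interaction. These genes were selected by the same interaction in the same arrays, so the kept signs are no separate check. With the slide as a block, where fewer degrees of freedom remain, 31 genes passed, 29 of them among the 161. For all 161 genes the 3 within-slide differences at 36 hpf lay apart from the 3 at 24 hpf, as they did for 19.9% of all genes. The same values selected the 161 genes, so this is no separate check either. Scaled to all positive control spots, 12 of the 161 changed the sign of their interaction, namely 8 late higher, 3 transient lower and 1 reversed gene.

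**Figure D2:**
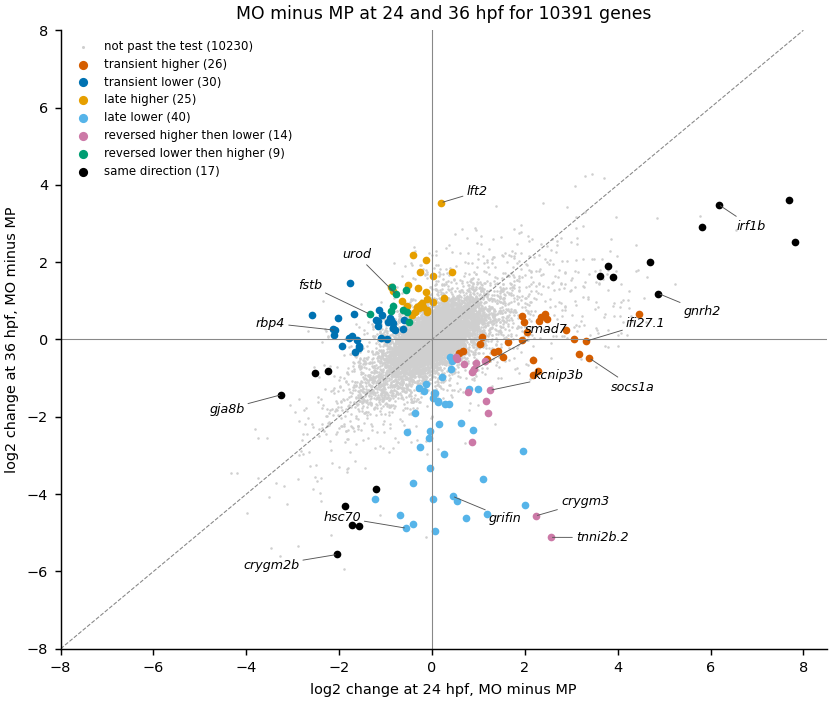
Change (MO minus MP, log2) at 24 hpf on the horizontal axis and at 36 hpf on the vertical axis for the 10391 genes tested. Grey genes did not pass the interaction test, and the 161 that passed are coloured by class: 56 transient genes lie along the horizontal axis, 65 late genes along the vertical axis and 23 reversed genes in the upper left and lower right.

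The messenger that the morpholino pairs with, nr3c1, is the GR gene itself. Its log2 level, relative to the median of the bright probes on the array, was -0.78, -0.38 and -0.61 in the MO 24 hpf arrays and -0.51, -0.58 and -0.38 in the MP 24 hpf arrays (here and below in the order of replicates 1, 2 and 3). At 36 hpf it was -0.29, -0.09 and -0.24 in MO and -0.29, -0.21 and -0.20 in MP. The groups overlapped at both times, with changes of -0.10 (adjusted p = 0.66) and 0.03 (adjusted p = 0.91). The interaction was 0.13 ± 0.20 (SE, adjusted p = 0.83) and turned negative under spike-in scaling and under scaling to all positive control spots. The signed values here run MO minus MP, while the fold changes of the study run MP over MO and so carry the other sign. The study reads its fold changes as responses to GR knockdown, and reports qPCR of selected genes in the same direction as its arrays. Directions given here, by the sample titles, are thus opposite to those the study describes. Whether labels or ratios were exchanged was not tested. A morpholino of this kind acts on translation, so this level is no check of the knockdown.

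Genes higher in MO at 24 hpf only were led by regulators of immune signaling. Socs1a, an inhibitor of cytokine signaling through Jak and Stat proteins, had log2 levels of 0.53, 0.16 and -0.21 in MO 24 hpf, against -3.35, -3.12 and -3.22 in MP 24 hpf. At 36 hpf its levels were -2.87, -3.15 and -3.38 in MO and -2.13, -3.29 and -2.52 in MP. All 3 MO arrays lay above all 3 MP arrays at 24 hpf, and the groups overlapped at 36 hpf. Over all genes tested the MO and MP values did not overlap for 59.6% at 24 hpf and for 28.7% at 36 hpf, so this separation alone sets no gene apart. The change was 3.39 at 24 hpf (adjusted p = 3.56e-05) and -0.48 at 36 hpf (95% interval -1.11 to 0.14), an interaction of -3.88 ± 0.40 (SE, adjusted p = 0.0012). It passed in all 12 fits that left out 1 array and with the slide as a block (adjusted p = 0.024).

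Ifi27.1, a member of an interferon-inducible gene family, followed the same course. Its levels were 0.09, -0.65 and -0.56 in MO 24 hpf and -3.68, -3.77 and -3.64 in MP 24 hpf. They were -1.90, -2.74 and -1.94 in MO 36 hpf and -2.11, -2.30 and -2.04 in MP 36 hpf. The difference of 3.32 at 24 hpf was thus no longer seen at 36 hpf, where the change was -0.04 (95% interval -0.60 to 0.51, interaction -3.36, adjusted p = 0.0013). The controls also differed between the times: over the 26 transient higher genes the median of MP 36 hpf minus MP 24 hpf was 0.591, and that of MO 36 hpf minus MO 24 hpf was -1.34. Over all genes tested these medians were -0.0619 and -0.0685. The classes were selected on the same group means, so such movements, here and below, are in part built in.

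Alox5b.3, of the family of lipoxygenases that make leukotrienes, was at -1.49, -2.67 and -2.21 in MO 24 hpf and at -5.05, -5.38 and -5.45 in MP 24 hpf. Its change was 3.17 at 24 hpf and -0.37 at 36 hpf (95% interval -1.28 to 0.54), with an interaction of -3.54 ± 0.59 (SE, adjusted p = 0.013). The transient higher genes further included spon2b, a secreted spondin (changes of 2.17 and then -0.91), which missed the threshold in the fit without MP 24 hpf replicate 2 (adjusted p = 0.051). Arf4b, a small GTPase of the Golgi (2.89 and 0.25), passed in 6 of the 12 fits that left out 1 array, and ctsl.1, a lysosomal cathepsin L (2.18 and -0.52), in 3.

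Chosen after their values were seen, further transient higher genes belong to inflammatory and death signaling. Tgfb1a, a TGF-beta ligand, changed by 2.29 and then 0.47, traf3, an adaptor of TNF receptor signaling, by 2.48 and then 0.53, and casp9, the initiator caspase of the mitochondrial death pathway, by 2.04 and then 0.20, passing in 9, 7 and 7 of the 12 fits that left out 1 array. Il12ba, the p40 chain of interleukin 12, was well above background in MO 24 hpf only, where it was at least 9.23-fold higher than in MP. It entered the test only through that group, so its pass is no separate support, and its interaction passed in 4 of these fits. Over the 26 genes the median change was 2.1 at 24 hpf and -0.0592 at 36 hpf. Under spike-in scaling 11 of the 26, among them arf4b, tgfb1a, traf3, casp9 and il12ba, had another sign at 36 hpf and none at 24 hpf.

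Interferon and antigen processing genes that changed at both times moved the same way as this group but kept part of the difference. Irf1b, an interferon regulatory transcription factor, was at 3.66, 3.37 and 3.20 in MO 24 hpf, against -2.65, -3.11 and -2.55 in MP 24 hpf. At 36 hpf it was at 0.26, 1.39 and 1.84 in MO, against -2.69, -2.30 and -1.97 in MP. The difference was 72.3-fold at 24 hpf and 11.2-fold at 36 hpf, with no overlap at either time. The interaction of -2.69 ± 0.48 (SE, adjusted p = 0.019) passed in 9 of the 12 fits that left out 1 array and missed without MO 24 hpf replicate 1 or 2 or MP 24 hpf replicate 2 (highest adjusted p = 0.065).

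Xaf1, an antagonist of the caspase inhibitor XIAP, changed by 5.83 at 24 hpf and 2.91 at 36 hpf (interaction adjusted p = 0.014, and 0.053 without MO 24 hpf replicate 2). Psme1, a subunit of the PA28 proteasome activator, changed by 3.61 and 1.65, and psmb13a, a proteasome subunit of the immune type, by 4.69 and 1.99. The psme1 interaction passed in 7 and the psmb13a interaction in 4 of the 12 fits that left out 1 array (highest adjusted p = 0.071 and 0.097). Tap2a, a subunit of the peptide transporter of antigen presentation, was named after its values were seen. It was not well above background in any MP 24 hpf array and was at least 84.7-fold higher in MO there, against 12.2-fold higher in MO at 36 hpf, where 2 of the 3 MP arrays were well above background, and its interaction passed in 3 of the 12 fits.

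Over the whole list of 21 interferon response and immunoproteasome genes tested, 5 passed the interaction test (23.8%, against 1.55% of all genes). Of these 4 were more negative and 1 (gbp1) more positive. Of the 21, 17 had a negative interaction, while over all genes 5246 interactions were positive and 5145 negative. The median change of the list was 1.63 at 24 hpf and 0.695 at 36 hpf, and under spike-in scaling it was 1.2 and -0.434. Members that did not pass had similar signs, such as b2m, the light chain of class I molecules (3.14 and 1.76, adjusted p of the interaction = 0.165), and mxa, an antiviral GTPase (1.75 and 0.71, adjusted p = 0.177).

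**Figure D3:**
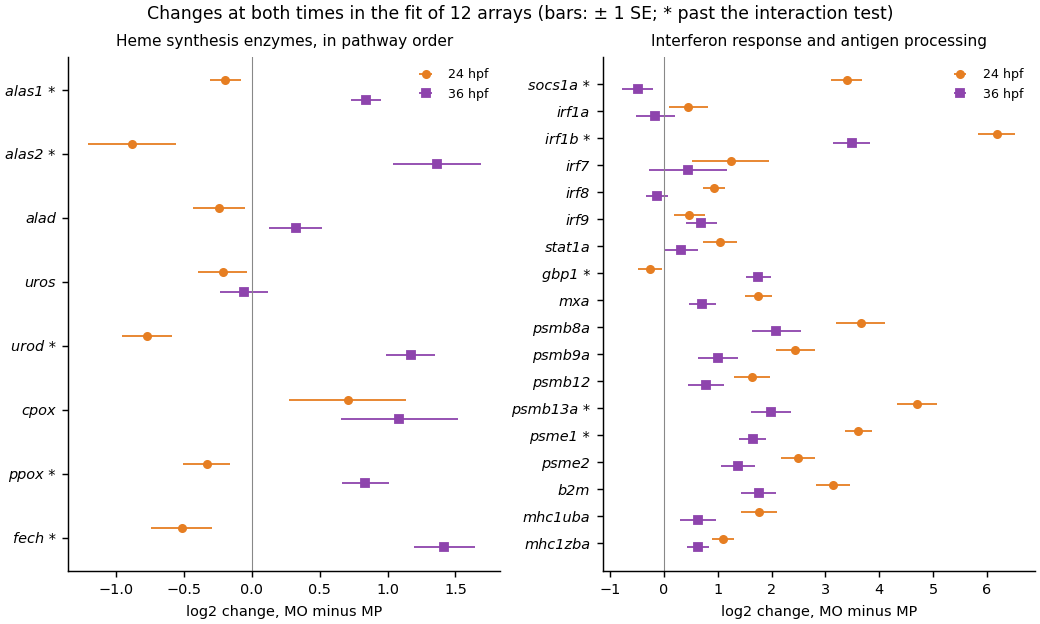
Change (MO minus MP, log2, with 1 SE of the fit) at 24 and 36 hpf for a selection of heme synthesis enzymes, in the order of the pathway, and of the interferon genes tested. A star marks genes past the interaction test. The heme enzymes shown that passed lie below 0 at 24 hpf and above 0 at 36 hpf. Irf1b, psme1, psmb13a and socs1a lie lower at 36 than at 24 hpf, and gbp1 lies higher.

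Outside the immune genes, gnrh2, the gonadotropin-releasing hormone of midbrain neurons, had the largest interaction among the named genes whose difference kept its direction and was smaller at 36 hpf. Its levels were 1.68, 1.72 and 1.18 in MO 24 hpf and -3.58, -3.29 and -3.18 in MP 24 hpf. They were -1.40, -1.32 and -0.50 in MO 36 hpf and -2.07, -2.33 and -2.4 in MP 36 hpf. The groups did not overlap at either time, and the difference was 29.4-fold at 24 hpf and 2.28-fold at 36 hpf. The interaction of -3.69 ± 0.35 (SE, adjusted p = 0.00055) passed in all 12 fits that left out 1 array and with the slide as a block. Under spike-in scaling the change at 36 hpf was 0.06. Among the 17 genes that kept their direction, 12 had the smaller change at 36 hpf.

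Genes lower in MO at 24 hpf only included secreted proteins of the plasma, which at these stages are made largely by the yolk syncytial layer and the early liver. Rbp4, the plasma carrier of retinol, was at 2.45, 1.91 and 2.11 in MO 24 hpf, against 4.07, 4.31 and 4.34 in MP 24 hpf. In the 36 hpf arrays it was at 3.77, 3.06 and 3.72 in MO, against 3.0, 3.45 and 3.38 in MP. MO lay 4.24-fold below MP at 24 hpf with no overlap, and the groups overlapped at 36 hpf. The change was -2.08 and then 0.24 (95% interval -0.22 to 0.70), and the interaction was 2.32 ± 0.30 (SE, adjusted p = 0.0036), past the threshold in all 12 fits that left out 1 array and with the slide as a block (adjusted p = 0.019).

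Fgg, the gamma chain of fibrinogen, changed by -1.79 at 24 hpf and 0.03 at 36 hpf. Its interaction passed in 6 of the 12 fits that left out 1 array (highest adjusted p = 0.068). Fgb, the beta chain of the same protein, had changes of -1.90 and -0.40 and did not pass (adjusted p of the interaction = 0.10). Masp2, the protease that starts the lectin pathway of complement, was at -5.12, -4.66 and -4.44 in MO 24 hpf and at -3.13, -3.26 and -2.79 in MP 24 hpf, a change of -1.68, and at 36 hpf its change was 0.66 (95% interval 0.11 to 1.22, adjusted p = 0.092). Its interaction of 2.34 (adjusted p = 0.0097) passed in all 12 fits that left out 1 array, while that of cfhl2, of the complement factor H family (-2.1 and 0.11), passed in 2. Chosen after their values were seen, c8a, a component of the complement membrane attack complex (-1.13 and 0.77), f7l, of the coagulation factor VII family (-1.73 and 0.09), and plg, the precursor of plasmin (-1.10 and 0.04), fell in the same class. They passed in 5, 3 and 5 of the 12 fits that left out 1 array.

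Most plasma proteins tested did not pass. Of the 21 genes of the yolk layer and plasma list tested, rbp4 and fgg passed (9.52%, against 1.55% of all genes), both more positive. The list had a median change of 0.0928 at 24 hpf and 0.555 at 36 hpf (-0.336 and -0.574 under spike-in scaling). Apolipoprotein E of the apoea gene was lower in MO at both times (-1.79 and -1.68), and apoeb was higher at both (1.14 and 1.47).

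Metabolic enzymes and a neuropeptide shared the course of rbp4. Xylb, the kinase of xylulose, was at -3.21, -3.35 and -3.89 in MO 24 hpf and at -1.32, -1.55 and -1.50 in MP 24 hpf, a change of -2.03, and its change at 36 hpf was 0.56 (95% interval 0.08 to 1.03, interaction 2.58, adjusted p = 0.0025). Hao1, a peroxisomal oxidase of glycolate that was named after its values were seen, changed by -1.62 and -0.01. Hcrt, the hypocretin (orexin) precursor of hypothalamic neurons, was at -5.52, -5.83 and -6.06 in MO 24 hpf, against -3.68, -3.47 and -3.84 in MP 24 hpf. The levels at 36 hpf were -3.28, -3.14 and -2.73 in MO, against -3.82, -2.74 and -3.39 in MP. The 4.40-fold lower level at 24 hpf gave way to overlapping groups at 36 hpf (change 0.26, 95% interval -0.36 to 0.89, interaction 2.4, adjusted p = 0.014, and 0.051 without MP 24 hpf replicate 2).

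The direction of hcrt was thus opposite to that of gnrh2 at 24 hpf, and both differences were smaller at 36 hpf. Ebi3, a subunit of cytokines of the interleukin 12 family, had changes of -1.77 and 1.47, the second of which missed the threshold (adjusted p = 0.061), and passed in 3 of the 12 fits that left out 1 array. Over the 30 transient lower genes the median change was -1.19 at 24 hpf and 0.291 at 36 hpf. In 28 of the 30 the MO mean was higher at 36 hpf than at 24 hpf, with a median of 1.01, and the MP mean was higher in 7, with a median of -0.555. Selection into the class used these same means. Under spike-in scaling, and under scaling to all positive control spots, 24 of the 30 had another sign at 36 hpf and none at 24 hpf. Among them were rbp4, fgg, masp2, cfhl2, xylb, hcrt, c8a, f7l and plg, whose changes at 36 hpf were then negative.

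**Figure D4:**
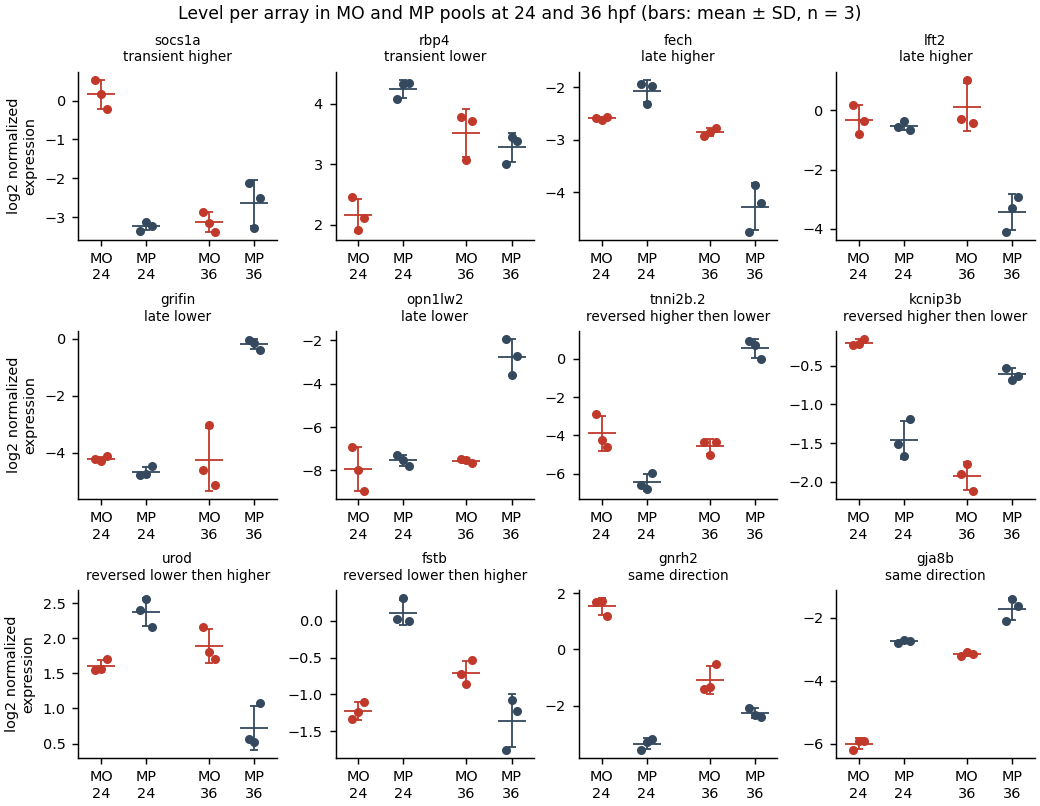
Log2 level of 12 genes on each array, relative to the median of the bright probes, with MO (red) left of MP (grey) at 24 and then 36 hpf. Points are arrays and bars the mean with SD (n = 3). Socs1a and rbp4 separate at 24 hpf only, opn1lw2 at 36 hpf only, grifin by a small gap at 24 hpf and a wide one at 36 hpf, and tnni2b.2, kcnip3b, urod and fstb separate at both times in opposite directions.

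Genes higher in MO at 36 hpf only, or lower at 24 hpf and then higher, included the enzymes of heme synthesis. Heme is made in a short chain of enzymes in which Alas makes the first intermediate, Urod acts in the middle, and Ppox and Fech act at the end, and red cells need it for hemoglobin. Urod (uroporphyrinogen decarboxylase) was at 1.55, 1.56 and 1.71 in MO 24 hpf, against 2.4, 2.57 and 2.17 in MP 24 hpf. Later, at 36 hpf, it was at 2.16, 1.80 and 1.70 in MO, against 0.56, 0.52 and 1.08 in MP. MO was 1.71-fold lower at 24 hpf and 2.25-fold higher at 36 hpf, with no overlap at either time. Its interaction was 1.94 ± 0.26 (SE, adjusted p = 0.0036) and passed in all 12 fits that left out 1 array, with an adjusted p of 0.063 with the slide as a block. Under spike-in scaling the change of urod was -1.2 at 24 hpf and 0.04 at 36 hpf.

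Fech, which inserts iron to finish heme, was at -2.59, -2.62 and -2.57 in MO 24 hpf, against -1.94, -2.32 and -1.97 in MP 24 hpf. At 36 hpf it was at -2.94, -2.86 and -2.78 in MO, against -4.76, -3.86 and -4.21 in MP. The MO arrays of both times lay between -2.94 and -2.57, while the MP mean at 36 hpf minus that at 24 hpf was -2.2, and the change was -0.52 (adjusted p = 0.12) and then 1.42 (adjusted p = 0.0013), with an interaction of 1.93 ± 0.32 (SE, adjusted p = 0.013).

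Alas2 and ppox passed with the same signs. Alas2, the red cell form of the first enzyme, changed by -0.88 (adjusted p = 0.072) and 1.36, and ppox by -0.33 and 0.83. Each passed in 2 of the 12 fits that left out 1 array (highest adjusted p = 0.099 and 0.11). Alas1, the form of other tissues, was named after its values were seen and changed by -0.20 and 0.84 (interaction adjusted p = 0.0096). Enzymes that did not pass included alad (-0.24 and 0.32), uros (-0.21 and -0.06) and cpox (0.71 and 1.08).

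Over the erythroid and heme list 5 of 31 genes tested passed (16.1%, against 1.55% of all genes), all more positive at 36 hpf. Of the 31, 25 had a positive interaction, while over all genes 5246 interactions were positive and 5145 negative. The median change of the list was -0.268 at 24 hpf and 0.94 at 36 hpf, and under spike-in scaling the median at 36 hpf was -0.189. Scaled to all positive control spots, it was -0.237 and the median interaction of the list turned negative (-0.106). Embryonic globins had wide errors and did not pass: hbbe3 had changes of -0.74 and 1.36 (adjusted p of the interaction = 0.063) and hbae3 of -1.09 and 0.27 (adjusted p = 0.17). The blood transcription factors tal1 (1.34 and 0.51) and lmo2 (1.51 and 1.26), which act early in the lineage, were higher in MO at 24 hpf and had negative interactions that did not pass.

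Cygb1, a cytoglobin, was the reversed gene with the largest positive interaction. Its levels were 2.68, 2.34 and 2.85 in MO 24 hpf and 3.43, 3.49 and 3.54 in MP 24 hpf. They were 2.54, 2.78 and 2.74 in MO 36 hpf and 0.91, 1.15 and 1.92 in MP 36 hpf. The MO levels of the sampled times overlapped and the MP levels did not, and the change was -0.86 and then 1.36 (interaction 2.23 ± 0.32, adjusted p = 0.006, and 0.040 with the slide as a block).

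Fstb, a follistatin that binds activin and BMP ligands, was at -1.34, -1.24 and -1.10 in MO 24 hpf and at 0.02, 0.31 and 0.00 in MP 24 hpf. In the 36 hpf arrays it was at -0.72, -0.85 and -0.53 in MO and at -1.76, -1.08 and -1.23 in MP. MO was 2.53-fold lower and then 1.57-fold higher with no overlap, and the interaction of 1.99 (adjusted p = 0.0043) passed in all 12 fits that left out 1 array. Crip2, a LIM domain protein, changed by -0.56 and 1.28, rgn, the calcium-binding regucalcin, by -0.88 and 0.73, and folr, a folate receptor, by -0.83 and 0.85, and of these folr passed in 3 of the 12 fits. Under spike-in scaling only cygb1, crip2 and urod of the 9 genes of this class had a positive change at 36 hpf, and under scaling to all positive control spots only cygb1 and crip2. In 9 of 9 the MP mean was lower at 36 hpf than at 24 hpf (median -1.47), and the MO mean was higher in 6 (median 0.205). These means also selected the class.

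Lft2, the Lefty inhibitor of Nodal signaling, had the largest difference among genes higher in MO at 36 hpf only. It was at 0.19, -0.81 and -0.37 in MO 24 hpf and at -0.57, -0.37 and -0.65 in MP 24 hpf, where the groups overlapped. The levels at 36 hpf were -0.29, 1.03 and -0.44 in MO, against -4.11, -3.30 and -2.91 in MP, an 11.6-fold difference. The interaction was 3.34 ± 0.57 (SE, adjusted p = 0.014) and missed the threshold without MP 24 hpf replicate 2 (adjusted p = 0.052). The MP levels of the sampled times did not overlap and the MO levels did, and the change at 36 hpf remained positive under spike-in scaling (2.41).

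Gbp1, an interferon-inducible GTPase, was the interferon gene with the opposite course. Its levels were -0.78, -0.65 and -0.45 in MO 24 hpf and -0.41, -0.58 and -0.11 in MP 24 hpf, and they were -1.09, -0.19 and -0.68 in MO 36 hpf and -2.58, -2.47 and -2.17 in MP 36 hpf. Its change was -0.26 (adjusted p = 0.44) and then 1.75 (interaction 2.01, adjusted p = 0.011), and it passed in all 12 fits that left out 1 array. Other genes of this class were rbp7b, a cellular retinoid-binding protein (-0.12 and 2.06), rfesd, of the Rieske iron-sulfur family (-0.42 and 2.18), tnnt2c, a troponin T (-0.84 and 1.26), oc90, a matrix protein of the ear stones (0.42 and 1.74), and gart, an enzyme of purine synthesis (-0.27 and 0.89). Of these rfesd passed in 2, tnnt2c in 3, oc90 in 7, gart in 9 and rbp7b in 10 of the 12 fits that left out 1 array. In none of the 25 late higher genes was the MP mean higher at 36 hpf than at 24 hpf (median difference -1.13), and the MO mean was higher in 19 (median 0.30). The selection of the class rests on the same means. Under spike-in scaling, and under scaling to all positive control spots, 14 of the 25, among them gart and the heme enzymes ppox and alas1, had a negative change at 36 hpf.

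Genes lower in MO at 36 hpf only formed the largest class in the main fit (40 genes), and genes of the lens were among them. Where probes had to be above background on all 12 arrays, 24 of the 40 late genes were higher. Without MO 36 hpf replicate 2 the late lower class held 174 genes, against 457 transient lower, 407 transient higher and 240 late higher. Lens fibers fill with crystallins and lose their organelles as they mature, and the zebrafish lens makes its first fibers around these stages. Grifin, a galectin-related protein of lens fibers, was at -4.24, -4.31 and -4.13 in MO 24 hpf, against -4.78, -4.77 and -4.47 in MP 24 hpf, a change of 0.45 without overlap (adjusted p = 0.46). Later, at 36 hpf, it was at -4.61, -3.02 and -5.13 in MO, against -0.03, -0.16 and -0.39 in MP. From 24 to 36 hpf the mean moved by -0.03 in MO and by 4.48 in MP, and MO was 16.7-fold lower at 36 hpf with no overlap and 2 of its 3 arrays well above background. The interaction was -4.50 ± 0.58 (SE, adjusted p = 0.0036), it passed in all 12 fits that left out 1 array, and it was -5.12 without MO 36 hpf replicate 2.

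Lim2.5, of the family of lens fiber membrane proteins, was not well above background in any array of MO 24 hpf, MP 24 hpf or MO 36 hpf, and was at -2.87, -1.67 and -3.29 in MP 36 hpf. It was at least 8.07-fold lower in MO at 36 hpf, and no difference can be given at 24 hpf. It entered the test only through MP 36 hpf, the group where it was high, so its pass is no separate support. Lctla, a lactase-like glycosidase, was at -5.55, -5.15 and -5.17 in MO 36 hpf, against -0.95, -0.46 and -1.91 in MP 36 hpf, with changes of 0.54 at 24 hpf and -4.18 at 36 hpf (interaction adjusted p = 0.00055). Dnase1l1l, a DNase I-like enzyme, changed by 1.19 (adjusted p = 0.082) and -4.50, and lgsn, the lens protein lengsin, by -0.03 and -3.33. In both genes 1 of the 3 MO 36 hpf arrays was well above background, as were 2 for lctla, so their 36 hpf differences rest in part on values near background. Dnase1l1l passed in all 12 fits that left out 1 array and lgsn in 4 (highest adjusted p = 0.099).

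Of the 5 genes that were lower in MO at both times with a larger difference at 36 hpf, 3 were lens genes. Crygm2b, a gamma crystallin, was at -6.00, -4.07 and -6.05 in MO 24 hpf, against -3.25, -3.52 and -3.21 in MP 24 hpf. At 36 hpf it was at -2.67, -3.99 and -2.76 in MO, against 2.51, 2.83 and 1.93 in MP, a change of -5.56 after -2.04. Bfsp2, a protein of the beaded filaments of lens fibers, changed by -1.21 and -3.88. The crygm2b interaction passed in 7 and the bfsp2 interaction in 3 of the 12 fits that left out 1 array.

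Gja8b, the connexin of lens fiber gap junctions, ran the other way. It was at -6.20, -5.89 and -5.89 in MO 24 hpf and at -2.79, -2.72 and -2.73 in MP 24 hpf, a 9.48-fold lower level in MO. In the 36 hpf arrays it was at -3.21, -3.10 and -3.15 in MO and at -2.1, -1.43 and -1.65 in MP, a 2.69-fold lower level. Its interaction of 1.82 ± 0.29 (SE, adjusted p = 0.011) passed in all 12 fits that left out 1 array.

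Of 34 lens genes tested 6 passed (17.6%, against 1.55% of all genes), 5 more negative and gja8b more positive. Among the 6, lim2.5 entered the test only through MP 36 hpf. Of the 34, 28 had a negative interaction, while over all genes 5246 interactions were positive and 5145 negative. The median change of the list was -1.86 at 24 hpf and -3.59 at 36 hpf. Many lens genes were already lower at 24 hpf and did not pass, such as mipa, the lens water channel (-4.21 and -3.46), and crybb1, a beta crystallin (-3.20 and -3.78), whereas the alpha crystallin cryaba, of the small heat shock protein family, was higher in MO at both times (2.99 and 1.55). Gamma crystallins are close copies of each other, so a probe may read more than 1 of them.

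A few genes of the retina were late lower. Rlbp1b, a retinaldehyde-binding protein, was at -1.64, -1.75 and -1.29 in MO 24 hpf and at -1.57, -1.88 and -1.62 in MP 24 hpf, and at -1.26, -1.12 and -1.45 in MO 36 hpf and at 0.68, 0.09 and 0.16 in MP 36 hpf. Its groups overlapped at 24 hpf and were apart at 36 hpf (change -1.59, interaction -1.72, adjusted p = 0.012, past the threshold in all 12 fits that left out 1 array). Arr3a, the cone arrestin, changed by 0.25 and -2.97 and passed in 4 of these fits (highest adjusted p = 0.11). Opn1lw2, a red cone opsin named after its values were seen, was well above background in all MP 36 hpf arrays (-1.94, -3.59 and -2.74), in 1 array of each 24 hpf group and in no MO 36 hpf array, and was at least 7.3-fold lower in MO at 36 hpf.

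Of the 19 retina and pineal genes tested, rlbp1b and arr3a were the 2 that passed, both more negative. The list as a whole had 10 positive and 9 negative interactions, with a median change of -0.492 at 24 hpf and -0.351 at 36 hpf. The eye field factor rx3 was higher in MO at 24 hpf (1.36) and had a change of 0.64 at 36 hpf, and atoh7, which starts the ganglion cell program, was lower in MO at both times (-2.17 and -5.07), with interactions that did not pass (adjusted p = 0.56 and 0.14).

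Late lower genes of the nervous system included insm1b, a zinc finger factor of newborn neurons, which was at 1.94, 1.92 and 2.34 in MO 24 hpf and at 2.19, 1.76 and 2.2 in MP 24 hpf. The levels at 36 hpf were 1.61, 1.89 and 1.44 in MO, against 3.56, 2.86 and 3.04 in MP (change -1.51, interaction -1.53, adjusted p = 0.026, passing in 4 of the 12 fits that left out 1 array). Neurod2, a bHLH factor of maturing neurons, was well above background in no MO 36 hpf array and in all MP 36 hpf arrays, and was at least 1.08-fold lower in MO there. Its interaction of -2.33 (adjusted p = 0.025) passed in 6 of the 12 fits and was 0.02 after normexp background correction. Neurod2 entered the test only through MP 36 hpf, the group where it was high. Of the 20 proneural factors tested insm1b and neurod2 passed (10%, against 1.55% of all genes). The list had a median change of -0.606 at 24 hpf and -1.43 at 36 hpf. Of the 20, 16 had a negative interaction, while over all genes 5246 interactions were positive and 5145 negative. The telencephalon factor foxg1b, named after its values were seen, changed by -0.53 (adjusted p = 0.10) and -2.39.

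Outside the eye and brain, atp2a1l, of the calcium pumps of the sarcoplasmic reticulum, was at -0.74, -1.83 and -3.82 in MO 24 hpf and at -2.75, -3.08 and -2.78 in MP 24 hpf, where the groups overlapped. Later, at 36 hpf, it was at -2.34, -2.2 and -1.92 in MO, against 2.45, 2.15 and 2.80 in MP, a 24.6-fold lower level (interaction -5.36 ± 0.79, adjusted p = 0.0078). Hsc70, a chaperone of the constitutive heat shock cognate family with close copies in the genome, was at -1.70, -3.42 and -2.43 in MO 36 hpf, against 2.37, 2.49 and 2.23 in MP 36 hpf, with a change of -0.56 at 24 hpf (adjusted p = 0.34) and of -4.88 at 36 hpf (interaction adjusted p = 0.0036). Both passed in all 12 fits that left out 1 array. The class also held ier5l, an immediate early gene family member (0.42 and -0.77, 10 of 12 fits), and hoxd3a, a Hox gene of the hindbrain and trunk (0.40 and -0.45), whose interaction lay at the threshold and passed in 1 of the 12 fits.

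In all 40 late lower genes the MP mean was higher at 36 hpf than at 24 hpf, with a median difference of 1.98, and that of MO was -0.412. Over all genes these medians were -0.0619 and -0.0685. The class was selected on the same means, so this course is in part built in. In 12 of the 40 no MO 36 hpf array was well above background, so that the level there is a bound. Spike-in scaling lowers every change, and 15 of the 40 had another sign at 24 hpf under it. The median change was 0.125 at 24 hpf and -2.35 at 36 hpf, and 18 of the 40 passed in all 12 fits that left out 1 array.

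Genes higher in MO at 24 hpf and lower at 36 hpf were led by tnni2b.2, a troponin I of fast muscle, which had the largest interaction of all genes tested. It was at -2.89, -4.22 and -4.60 in MO 24 hpf, against -6.61, -6.83 and -5.95 in MP 24 hpf. At 36 hpf it was at -4.36, -5.01 and -4.36 in MO, against 0.92, 0.72 and -0.02 in MP. MO was 5.88-fold higher at 24 hpf and 34.7-fold lower at 36 hpf, with no overlap at either time. From 24 to 36 hpf the mean moved by -0.67 in MO and by 7.0 in MP. The interaction was -7.67 ± 0.60 (SE, adjusted p = 0.00027), with an adjusted p of 0.019 with the slide as a block.

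Most other fast muscle genes did not pass. Of 32 fast muscle contractile and calcium handling genes tested only atp2a1l passed. Of the 32 genes, 25 were lower in MO at 24 hpf and 24 at 36 hpf (adjusted p under 0.05), against 10.9% and 9.99% of all genes. The median change was -1.4 at 24 hpf and -1.55 at 36 hpf. Troponin I genes of this kind lie in close copies, so the probe may read more than 1 of them.

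Crygm3, a gamma crystallin, was at -3.25, -4.51 and -5.41 in MO 24 hpf, against -6.82, -7.25 and -5.80 in MP 24 hpf. In the 36 hpf arrays it was at -7.37, -5.20 and -6.91 in MO, of which 1 array was well above background, against -1.83, -1.50 and -2.44 in MP. MO was 4.70-fold higher and then 23.7-fold lower, the only lens gene of the list that reversed (interaction -6.80 ± 0.89, adjusted p = 0.0036).

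Gsc, the goosecoid homeobox factor of the head and jaw mesenchyme at these stages, was at -1.53, -2.09 and -1.61 in MO 24 hpf and at -2.64, -2.59 and -2.59 in MP 24 hpf. The levels at 36 hpf were -2.86, -2.87 and -3.72 in MO and -0.33, -0.15 and -1.03 in MP. It was 1.82-fold higher and then 6.26-fold lower in MO, without overlap (interaction -3.51 ± 0.40, adjusted p = 0.0017, and 0.017 with the slide as a block).

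Kcnip3b, a calcium-binding partner of potassium channels, had nearly equal differences of opposite sign. It was at -0.23, -0.22 and -0.16 in MO 24 hpf, against -1.52, -1.67 and -1.19 in MP 24 hpf, and at -1.90, -1.76 and -2.12 in MO 36 hpf, against -0.53, -0.68 and -0.63 in MP 36 hpf. The change was 1.25 and then -1.31, without overlap at either time (interaction -2.57 ± 0.23, adjusted p = 0.00055).

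Smad7, the inhibitory Smad that TGF-beta and BMP signals induce, was at 1.27, 1.23 and 1.29 in MO 24 hpf and at 0.39, 0.34 and 0.32 in MP 24 hpf, and at 0.99, 1.47 and 0.81 in MO 36 hpf and at 1.95, 1.94 and 1.71 in MP 36 hpf. MO was 1.88-fold higher and then 1.71-fold lower without overlap (interaction -1.69, adjusted p = 0.0043). Smad7 and fstb, with opposite courses, were the 2 of 35 BMP pathway genes tested that passed (5.71%, against 1.55% of all genes). Both passed in all 12 fits that left out 1 array.

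The other reversed genes of this direction had smaller or less stable differences. Dlc, a Notch ligand of the segmentation clock, changed by 0.53 and -0.51 and passed in 7 of the 12 fits that left out 1 array, and btg2, an antiproliferative gene among the targets of p53, by 0.52 and -0.44 in 3. Tyrobp, a signaling adaptor of myeloid cells, changed by 1.2 and -1.89, with no MO 36 hpf array well above background and an at least 1.34-fold lower level in MO there, and passed in 7. Ada, adenosine deaminase, changed by 1.16 and -1.58 and passed in 5, and abi3a, of a family of actin regulators, by 0.78 and -1.36 in 8, with 1 MO 36 hpf value missing (replicate 3, an outlier spot).

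In all 14 genes of this direction the MP mean was higher at 36 hpf than at 24 hpf (median 0.901) and in none was the MO mean (median -0.92). Here too the same means selected the genes. No gene had another sign at 24 hpf under spike-in scaling. Of the 14 genes, 8 passed in all 12 fits that left out 1 array. In the fit without MO 36 hpf replicate 2, 25 of the 161 genes fell in another class. Dnase1l1l, ier5l and hoxd3a then joined this one, alas2 and tnnt2c the opposite one, and foxg1b the genes with the same direction at both times, while btg2 and folr were then transient.

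Outside the lens, the genes that were lower in MO at both times with a larger difference at 36 hpf included ankrd1b, a stress-induced ankyrin repeat protein of muscle. It was at -5.96, -5.29 and -5.58 in MO 24 hpf, against -3.77, -4.69 and -3.65 in MP 24 hpf, and at -3.55, -4.98 and -4.69 in MO 36 hpf, against 0.51, 0.10 and 0.66 in MP 36 hpf. MO was 2.98-fold lower and then 28.5-fold lower (interaction -3.26, adjusted p = 0.013). And3, an actinodin of the fin folds, changed by -1.73 and -4.80 and passed in 3 of the 12 fits that left out 1 array.

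By tissue, the genes that passed were spread over many lists with few in each. The lists with the highest shares past the test with all arrays, against 1.55% of all genes, were the interferon genes (5 of 21), lens (6 of 34), erythroid and heme genes (5 of 31), retina and pineal (2 of 19), proneural factors (2 of 20) and plasma proteins (2 of 21). None of the genes passed in the lists of muscle regulatory factors (13 tested), slow muscle (10), heart (19), endothelium (18), neurons and synaptic vesicles (42), neural progenitors (29), epidermis and keratins (28), the interrenal gland and steroid synthesis (12) and glucocorticoid targets (22). By limma without adjustment, 7 of the neuron, 7 of the epidermis, 5 of the neural progenitor, 4 each of the heart and muscle regulatory, 3 of the glucocorticoid target, 2 of the endothelium, 1 of the interrenal and 0 of the slow muscle genes had an interaction p under 0.05. Of all 10391 genes tested 1580 had such a p, a share near that of several of these lists. Without MO 36 hpf replicate 2, 6 of the muscle regulatory, 2 of the slow muscle, 5 of the heart, 2 of the endothelium, 6 of the neuron, 7 of the neural progenitor, 5 of the epidermis and 4 of the glucocorticoid target genes passed, and 0 of the interrenal genes, against 15.6% of all genes. In that fit 7 of the interferon, 13 of the lens, 14 of the erythroid and heme, 5 of the retina and pineal, 7 of the proneural and 5 of the plasma genes passed. The order of the lists thus changed without that array. Its highest shares were notochord, floor plate and cartilage matrix (8 of 17), muscle regulatory factors (6 of 13) and erythroid and heme genes (14 of 31). The standard error of the interaction with all arrays was 0.32 for the median gene (0.145 to 2.33).

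**Figure D5:**
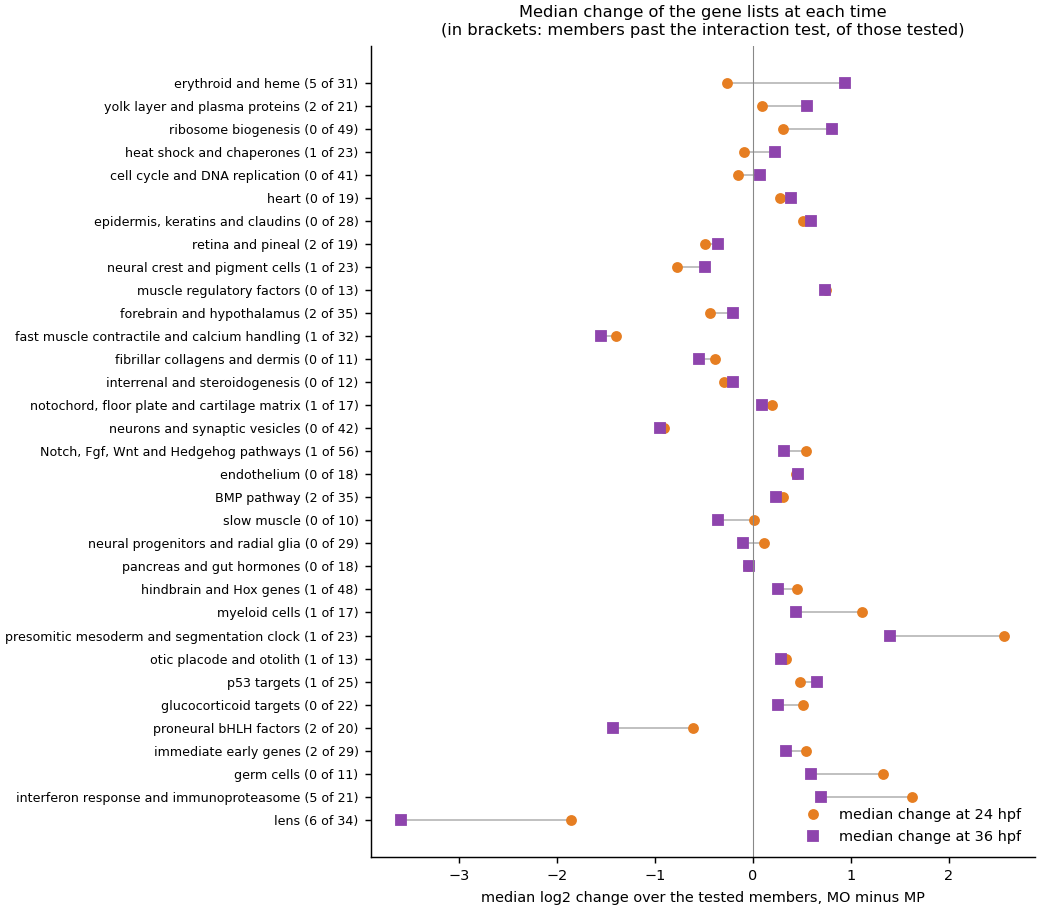
Median change (MO minus MP, log2) of each gene list at 24 and 36 hpf, ordered by the median interaction, with the number of genes past the interaction test and the number tested beside each. The lens list lies at -1.86 and -3.59, the erythroid and heme list at -0.268 and 0.94, and the interferon list at 1.63 and 0.695.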

How the data were processed

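Each sample was a pool of 25 whole zebrafish embryos. Per the labels and the file headers, Cy3-labelled RNA was read on single-colour Agilent Zebrafish V2 arrays, and the authors deposited 1 Feature Extraction 10.5.1.1 file per array with background-subtracted intensities. A deposited table of normalized intensities served as an alternative; its lowest value was mostly 0.01, and its MP 24 hpf replicate 2 and 3 columns matched each other's scanner files. Intensities were floored at 0.05 and outlier spots were dropped. Arrays were scaled to the median intensity of 19114 probes that exceeded 50 on every one of the 12 arrays (the study's methods give this floor and limit, for a set of positive control genes), and log2 was taken. A gene was read by its brightest probe (15772 probes of 10915 named genes, matched by accession to RefSeq; 3907 genes had more than 1 probe). The test covered the 10391 genes whose probe, in 1 or more groups, exceeded background clearly on each of the 3 arrays and which had 2 values in each group.

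A single limma 3.58.1 fit (R 4.3.3; eBayes with a trend; Benjamini-Hochberg over all genes tested, adjusted p under 0.05) of the 4 group means gave the changes (MO minus MP) at 24 and 36 hpf and their difference, the interaction. The study compared groups within a time only. Positive and negative controls and genes without a name were left out of the main fit. Genes were named as the 6 with the largest interaction in each class and direction, among those above background on at least 1 array of every group and with no overlap of MO and MP at each time called, plus nr3c1 and every listed gene that passed; others, including all list members that did not pass, were chosen after their values were seen. Some genes that this rule names are not reported here. The comparison, the 33 gene lists (836 of 1083 genes found) and the classes were chosen with earlier results of these data known. "At least" folds set the brighter group's mean against the dim group's mean of, per array, the higher of the lowest signal well above background and the probe's own. Replicates came from separate breeding events; array number limits the precision, and no spot was saturated. The fit was tested on simulated data in which a gene had the same spread in all groups. The simulation thus did not cover the wider spread of the 36 hpf arrays. Alternatives covered scaling, background correction, floor, filters, probe choice, test, blocks and each array left out. The scaling to all positive control spots was added after seeing the data.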

Additional observations from a re-analysis of the deposited data

Results flagged for a closer look

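The test of the difference between the times is the interaction itself, and 161 genes passed it. Among them, 23 changed at both times in opposite directions. With 3 arrays in a group, single arrays far from the others were not tested.

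Of the genes higher in MO at 24 hpf and lower at 36 hpf, tnni2b.2 had an interaction of -7.67, crygm3 of -6.8, gsc of -3.51, tyrobp of -3.09, ada of -2.74, kcnip3b of -2.57 and abi3a of -2.14. The interaction of hdgfl3, of the hepatoma-derived growth factor family, was -1.7, and that of rem1, a small GTPase, was -1.7 as well. That of smad7 was -1.69, that of itm2cb, an integral membrane protein, -1.55, that of fbxl2, an F-box protein, -1.32, that of dlc -1.04 and that of btg2 -0.96.

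Of the genes lower in MO at 24 hpf and higher at 36 hpf, cygb1 had an interaction of 2.23, fstb of 1.99, urod of 1.94, crip2 of 1.84, folr of 1.69 and rgn of 1.61. That of mthfsd was 1.24 and that of spdl1, a spindle protein, 0.937. Hdgfl3, rem1, itm2cb, fbxl2, mthfsd and spdl1 were named here because they reversed, after their values were seen.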

How the results depend on the processing

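Counts of genes below stand against 161 with an interaction, 2204 changed at 24 hpf, 1874 changed at 36 hpf, 56 transient, 65 late and 23 reversed. The cause of each shift was not tested. Spike-in scaling gave 99 with an interaction, 310 at 24 hpf, 1016 at 36 hpf, 35 late and 1 reversed, and scaling to all positive control spots, added after seeing the data, gave 384, 620 at 24 hpf, 6213 at 36 hpf, 127 transient and 204 late. The interaction of nr3c1 was -0.5743 under the first and -0.9639 under the second. Normexp background correction gave 105, with 37 transient and 12 reversed, a median change of all genes of 0.17 at 36 hpf and an interaction of neurod2 of 0.02343. A floor after scaling gave 274, with 110 transient and 110 late. Requiring all 12 arrays above background gave 119, with 40 late. Every probe of the array gave 263, with 5593 at 24 hpf, 4878 at 36 hpf and 107 transient, over more features. A t-test on the fit of all arrays without moderation, Benjamini-Hochberg adjusted, gave 117, with 27 transient. The t-test of the study differs, as it compared MO and MP within a time. Array weights gave 1330, with 6021 at 24 hpf, 824 transient, 243 late and 95 reversed. Slide as a block gave 31, with 1438 at 24 hpf, 9 transient, 11 late and 7 reversed, and scan session as a block gave 79, with 21 transient, 36 late and 13 reversed. Fits of the 6 arrays of 1 time gave 5000 at 24 hpf and 632 at 36 hpf. Classes by size, at 1 or more on the log2 scale, held 10 reversed genes. The remaining alternatives (75th percentile, quantile, outlier spots kept, no filter, mean over probes, the deposited table, no trend) gave 148 to 167.

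Leaving out 1 array gave 62 to 1626 with an interaction, 1099 to 3933 at 24 hpf, 1299 to 2742 at 36 hpf, 16 to 864 transient, 29 to 414 late and 8 to 149 reversed. The highest came without MO 36 hpf replicate 2, except at 36 hpf (without MO 36 hpf replicate 1). All 161 genes kept their sign in these fits, which is no separate check because the same interaction selected them.

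Deviations of same-numbered MO and MP arrays correlated with r from -0.156 to -0.0323 at 24 hpf and from -0.216 to 0.0935 at 36 hpf. With so few arrays in a group, these correlations cannot decide whether the numbers pair the samples. The replicate block gave 117 genes, 31 of them transient, and the replicate block within time gave 59, with 12 transient, 26 late and 12 reversed.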

Other observations

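Genes of cell growth leaned towards a positive interaction without passing. None of the 49 genes of ribosome biogenesis tested passed the interaction test (limma), and 19 had an unadjusted p under 0.05, against 1580 of all 10391 genes. Of the 49 genes, 47 had a positive interaction, while over all genes 5246 interactions were positive and 5145 negative. Their median change was 0.312 at 24 hpf and 0.81 at 36 hpf, and 44 were higher in MO at 36 hpf against 16 at 24 hpf (adjusted p under 0.05). Over all genes 8.05% were higher at 36 hpf and 10.3% at 24 hpf. Nhp2, a protein of small nucleolar RNPs, had changes of -0.54 and 0.82, and pwp1, a nucleolar WD repeat protein, of -0.02 and 0.93. Without MO 36 hpf replicate 2, 13 of the 49 passed, all positive, against 15.6% of all genes (874 positive and 752 negative). Under spike-in scaling the list had medians of -0.117 and -0.319 and its median interaction turned negative (-0.285). Genes of the cell cycle and DNA replication were alike in sign: none of 41 passed, 2 had an unadjusted p under 0.05, 33 had a positive interaction, and 13 passed without that array, all positive. Their median change was -0.154 at 24 hpf and 0.0685 at 36 hpf, with both medians and the median interaction (-0.451) negative under spike-in scaling.

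Developmental regulators leaned the other way. Of 48 hindbrain and Hox genes tested, 14 were higher in MO at 24 hpf and 4 at 36 hpf, against 10.3% and 8.05% of all genes. The count at 36 hpf was thus near the share of all genes. Of the 48 genes, 32 had a negative interaction. Hoxd11a, of the posterior body, had changes of 0.91 and -0.38 (adjusted p of the interaction = 0.063). Of 56 genes of the Notch, Fgf, Wnt and Hedgehog pathways, 21 were higher at 24 hpf and 7 at 36 hpf, against 10.3% and 8.05% of all genes. The count at 36 hpf was again near that share, and 39 of the 56 had a negative interaction. Lef1, a nuclear effector of Wnt signals, had changes of 1.45 and 0.23, and wnt5b, a Wnt ligand of the tail, of 1.06 and -0.11. Without MO 36 hpf replicate 2, 16 genes of each of these lists passed, all negative. Of all genes 15.6% passed in that fit, 874 positive and 752 negative. Of 29 immediate early genes, 27 had a negative interaction. In MO 14 of the 29 were higher at 24 hpf and 3 at 36 hpf, the latter again near the share of all genes. Under spike-in scaling the median change at 36 hpf was -0.87 for the hindbrain and Hox list, -0.808 for the pathway list and -0.791 for the immediate early list, against -1.1 over all genes. Socs3a, a feedback inhibitor of cytokine signals, had changes of 2.14 and 0.73, and junba, of the AP-1 factors, of 3.28 and 1.35. These genes were chosen after their values were seen, and over all genes 5246 interactions were positive and 5145 negative.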
